A study of Bubalus bubalis with 36 samples.

Results

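Developmental transcription factors of 13 families outside the HOX clusters were followed across 6 adipose tissue (AT) depots of river buffaloes. Members were taken by symbol from the expression table (T-box, SIX-family, IRX, MEIS, PBX, FOX, SOX, DLX, MSX, LHX, PAX, ZIC and NKX genes) when their average over the 36 libraries was above 0.1 FPKM (sequenced fragments scaled by transcript length and library size). TBX4, TBX5, TBX15, SOX10 and FOXD3 were not taken. Of 93 such symbols in the table, 63 passed this limit and 30 did not, and the whole table held 23032 gene models, of which 17688 passed the same limit. RNA was sequenced once from each depot of each of 6 animals. Subcutaneous fat (SAT) came from the back (BSAT), the sternum (SSAT) and the groin (inguinal, IAT). Visceral fat (VAT) came from the omentum (OAT), the pericardium (PCAT) and around the kidney (perirenal, PRAT). This gave 6 libraries a depot, 18 SAT libraries and 18 VAT libraries. Animals 1 to 3 were males and animals 4 to 6 females, all 19 to 21 months old. The paper describes a standard feeding procedure for all of them, with males and females raised separately in the later months. The labels give the males as Murrah and the females as Nili-Ravi, while the study's own list of animals gives all of them as Murrah. By the labels, sex and breed cannot be told apart, and neither can sex and the separate rearing. No group was treated, and each depot is whole tissue from slaughtered animals.

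These proteins bind DNA and are known from the embryo, where they give cells of different body regions their identity. MEIS and PBX proteins carry a TALE homeodomain and bind DNA as partners of HOX proteins, IRX proteins are a further TALE branch, and SIX-family, MSX, DLX, LHX, PAX and NKX proteins carry other homeodomains or paired domains. FOX proteins share the forkhead domain, SOX proteins the HMG box, T-box proteins the T-box domain and ZIC proteins zinc fingers. Fat depots arise from different stretches of embryonic mesoderm, and adult fat of several mammals keeps some expression of such genes.

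The 63 members covered a wide range of levels. On average over the 36 libraries, 21 members lay between 0.1 and 1 FPKM, 21 between 1 and 10 FPKM, 17 between 10 and 100 FPKM and 4 above 100 FPKM. Among the highest were FOXP1 (265 FPKM), FOXK1 (242 FPKM) and FOXJ3 (204 FPKM). FOXP1 and FOXJ3 are forkhead factors of many tissues, and FOXK1 is a forkhead repressor of starvation genes in muscle and fat cells. Below 100 FPKM followed FOXO3 (99.4 FPKM), a target of insulin signalling, SIX5 (45.7 FPKM), MEIS3 (43.5 FPKM), FOXK2 (41.4 FPKM), SOX6 (36.0 FPKM), TBX2 (35.9 FPKM), IRX3 (34.7 FPKM), FOXO1 (34.6 FPKM), PAX5 (34.4 FPKM), FOXO4 (33.6 FPKM) and SOX17 (31.2 FPKM). At the limit, FOXO6 (0.103 FPKM), ZIC1 (0.138 FPKM) and LHX1 (0.142 FPKM) were just inside, and FOXN4 (0.0895 FPKM), FOXA3 (0.0787 FPKM) and FOXF2 (0.0634 FPKM) just outside. All DLX, PAX, LHX and ZIC members but PAX5 averaged under 6 FPKM. Several well known symbols of these families, such as SOX9 and FOXC1, were not found by symbol and were not analysed here. The table gives gene models without coordinates, and 5 members had more than 1 model, of which the highest was used. The values of MEIS2 (evm.model.chr12.331) were identical to those of an unnamed adjacent model, so reads of the pair cannot be told apart.

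Most libraries were fat by their markers, with some exceptions that touch the members. Of 10 adipocyte markers 9 were in the table, and their summed level ran between 352 and 15522 FPKM. Adipocyte markers were low in 4 libraries, OAT 1, PRAT 4, PCAT 4 and OAT 4 (named by depot and animal), with sums of 352 to 634 FPKM and scores of −3.75 to −2.67, against at least 1734 FPKM and −1.05 elsewhere. In 6 libraries (OAT 1, OAT 4, PRAT 2, PRAT 4, IAT 4 and PCAT 2) B cell markers were high, with scores of 2.52 to 5.40 against at most 1.20 elsewhere. A score is the mean of a list's log2 values, each taken against the gene's own mean. BSAT 1 stood apart in skeletal muscle markers (score 5.48, against at most 0.295 elsewhere), and PRAT 1 in kidney epithelium markers (7.40, against at most 1.53). FPKM summed to 796645 to 911384 in a library. Counts of reads were not used, so the depth behind a single value is unknown. In whole tissue, fewer cells of a type and less RNA per cell cannot be told apart.

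To reveal which members separate subcutaneous from visceral fat, SATs were compared with VATs. IRX1, IRX2, IRX5, MSX1, MSX2, MEIS3 and FOXK1 were higher in SAT, and members that included SOX6, SOX11, IRX3, MEIS1, MEIS2, PBX3, FOXO1, FOXK2, FOXP1 and FOXJ3 were lower. In all, 18 of 63 members passed the threshold (7 higher, 11 lower; limma on log2(FPKM + 0.1), Benjamini-Hochberg adjusted p under 0.05), or 28.6%. Of all 17688 gene models 30.0% passed (7.9% higher, 22.1% lower), so the share of members is near that of all genes. Of the 18, 3 averaged at most 0.1 FPKM in the class where they were lower, IRX1 and IRX2 among them. They passed the limit on low values only through the other class, which fixed the direction of their difference in advance. Apart from them 15 members passed (5 higher, 10 lower). Without the 4 libraries poor in adipocyte markers, an alternative chosen after seeing the data, 16 members passed (7 higher, 9 lower). The median difference (SAT minus VAT) was −0.14 over the members and −0.13 over all gene models on the log2 scale. Under quantile normalization the median over all gene models was −0.02, 14 members passed (9 higher, 5 lower), and calls of higher level made up 55% of all calls against 26.3% in the main fit. Fibroblast and progenitor markers, 9 genes of a list of 10, summed to 902 to 4846 FPKM in SAT and 473 to 2073 FPKM in VAT. Other lists moved with the classes as well. Mesothelial markers summed to 1.11 to 6.41 FPKM in SAT and 1.31 to 2453 FPKM in VAT, and Schwann cell markers to 14.5 to 36.3 FPKM in SAT and 20.6 to 195 FPKM in VAT. Adipocyte markers had median sums of 3720 FPKM in SAT and 7960 FPKM in VAT. The part of these cells in the differences was not tested.

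**Figure D1:**
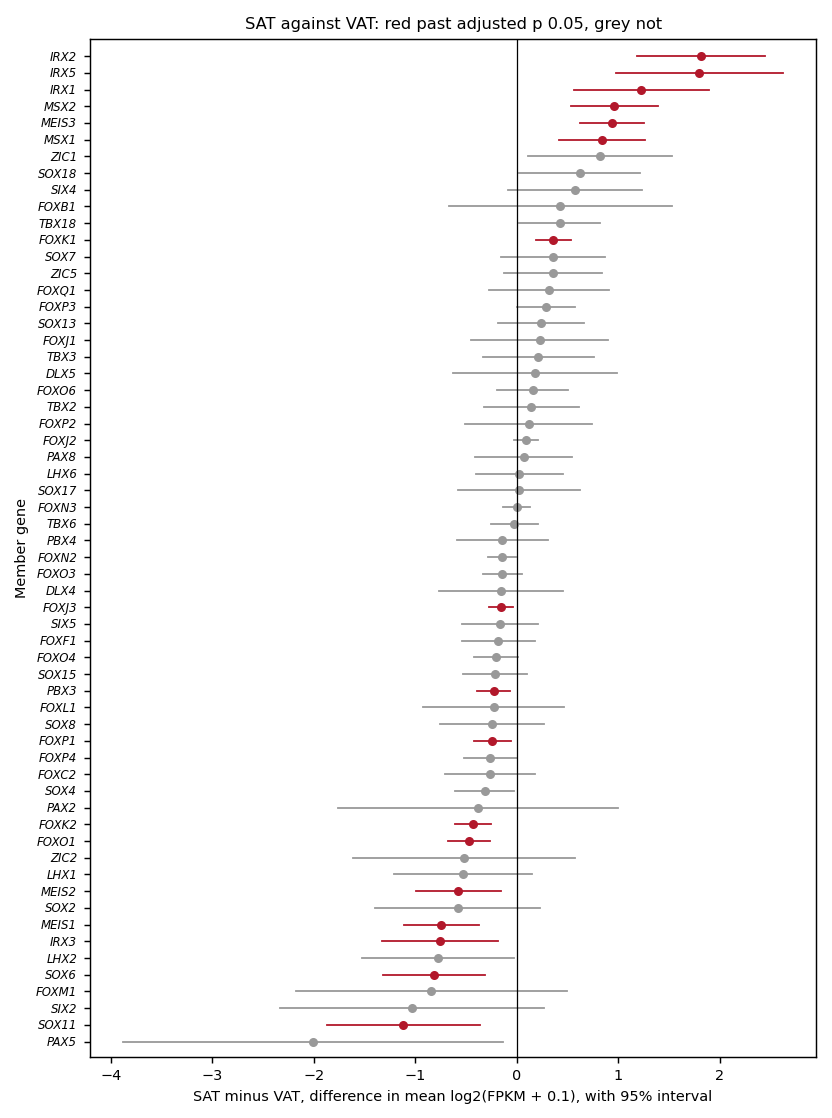
SAT minus VAT difference of 60 of the 63 members on the log2(FPKM + 0.1) scale, with points for estimates, bars for 95% intervals (18 SAT and 18 VAT libraries) and red for members past adjusted p 0.05. The 7 red points on the right are led by IRX2 at 1.82, and the 10 on the left by SOX11 at −1.12. The direction of IRX1 and IRX2 was fixed by the limit on low values. PAX5 lies furthest left with a wide interval and did not pass.

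All 4 IRX members passed, but IRX1 and IRX2 only in a direction fixed by the limit on low values. The other members, IRX5 and IRX3, split by direction. In the RefSeq annotation of another buffalo assembly IRX3 and IRX5 are adjacent protein-coding genes, while 1 protein-coding gene lies between IRX1 and IRX2. IRX5 (evm.model.chr21.218) had a lowest, median and highest level of 1.08, 4.56 and 9.75 FPKM in SAT, against 0, 1.13 and 7.49 FPKM in VAT. Its difference was 1.80 ± 0.41 (log2, SE; adjusted p = 0.0013), with SAT above VAT in 6 of 6 animals. IRX3 (evm.model.chr21.217), its neighbour, went the other way, with 12.4, 20.9 and 50.1 FPKM in SAT, against 5.16, 44.8 and 109 FPKM in VAT. Its difference was −0.76 ± 0.28 (adjusted p = 0.040), lower in SAT in 6 of 6 animals. IRX3 is known in mouse and human for its part in the development of energy-burning fat cells. The IRX3 call was lost under quantile normalization (adjusted p = 0.123), without PRAT 1 (0.0649) and without animal 2, 3, 5 or 6 (0.0521 to 0.179). Without the 6 lymphoid-rich libraries the difference was −1.23 (adjusted p = 5.6e-05).

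IRX1 and IRX2 were expressed at low levels, mostly in SAT. IRX2 had 0, 0.428 and 1.46 FPKM in SAT, against 0, 0.0303 and 0.203 FPKM in VAT, and was listed at 0 in 2 SAT and 6 VAT libraries. IRX1 had 0, 0.138 and 2.44 FPKM in SAT, against 0, 0 and 0.278 FPKM in VAT, and was listed at 0 in 4 SAT and 15 VAT libraries. The SAT and VAT ranges of both genes overlapped. In VAT they averaged 0.0435 FPKM (IRX2) and 0.0199 FPKM (IRX1), so both were members only through SAT, and their differences of 1.82 ± 0.31 (IRX2) and 1.23 ± 0.33 (IRX1) are given as a description. Each was higher in SAT in 6 of 6 animals, the direction that the limit on low values had fixed in advance. The size depends on the pseudocount, and over the alternatives it ran between 0.51 and 3.14 for IRX2 and between 0.30 and 2.88 for IRX1.

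Both MSX genes, homeodomain repressors downstream of BMP signalling, were higher in SAT. MSX2 had 2.62, 3.70 and 7.78 FPKM in SAT, against 0.597, 2.05 and 5.90 FPKM in VAT (difference 0.96 ± 0.21, adjusted p = 0.00096). MSX1 had 0.641, 1.53 and 4.15 FPKM in SAT, against 0.235, 0.859 and 1.68 FPKM in VAT (difference 0.84 ± 0.21, adjusted p = 0.0031). In each of the 6 animals the mean of the SAT depots was above that of the VAT depots for both genes. The ranges of the 2 classes overlapped.

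The 3 MEIS genes also split. MEIS3, the most abundant of them, had 30.9, 57.9 and 92.5 FPKM in SAT, against 13.9, 30.3 and 51.6 FPKM in VAT, a difference of 0.94 ± 0.16 (adjusted p = 5.3e-05, higher in 6 of 6 animals). MEIS1 had 2.48, 3.89 and 7.37 FPKM in SAT, against 3.47, 7.05 and 15.2 FPKM in VAT (−0.74 ± 0.18, adjusted p = 0.0026). MEIS2 had 3.29, 4.82 and 9.83 FPKM in SAT, against 2.19, 7.61 and 20.8 FPKM in VAT (−0.57 ± 0.21, adjusted p = 0.034). MEIS1 and MEIS2 were lower in SAT in 6 of 6 animals, and the MEIS2 call was lost under quantile normalization (adjusted p = 0.151), without the 4 adipocyte-poor libraries (0.0619) and without animal 1, 3, 4 or 5 (0.0578 to 0.0931). Of the PBX genes, which encode the common partners of MEIS proteins, PBX3 was lower in SAT (0.588, 0.820 and 1.10 FPKM, against 0.747, 0.928 and 1.40 FPKM in VAT; −0.23 ± 0.08, adjusted p = 0.028). That call was lost without the 6 lymphoid-rich libraries (adjusted p = 0.125), without the 4 adipocyte-poor ones (0.0622), under quantile normalization (0.312) and without animal 1, 2 or 5 (0.0676 to 0.0908). PBX4 did not pass.

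**Figure D2:**
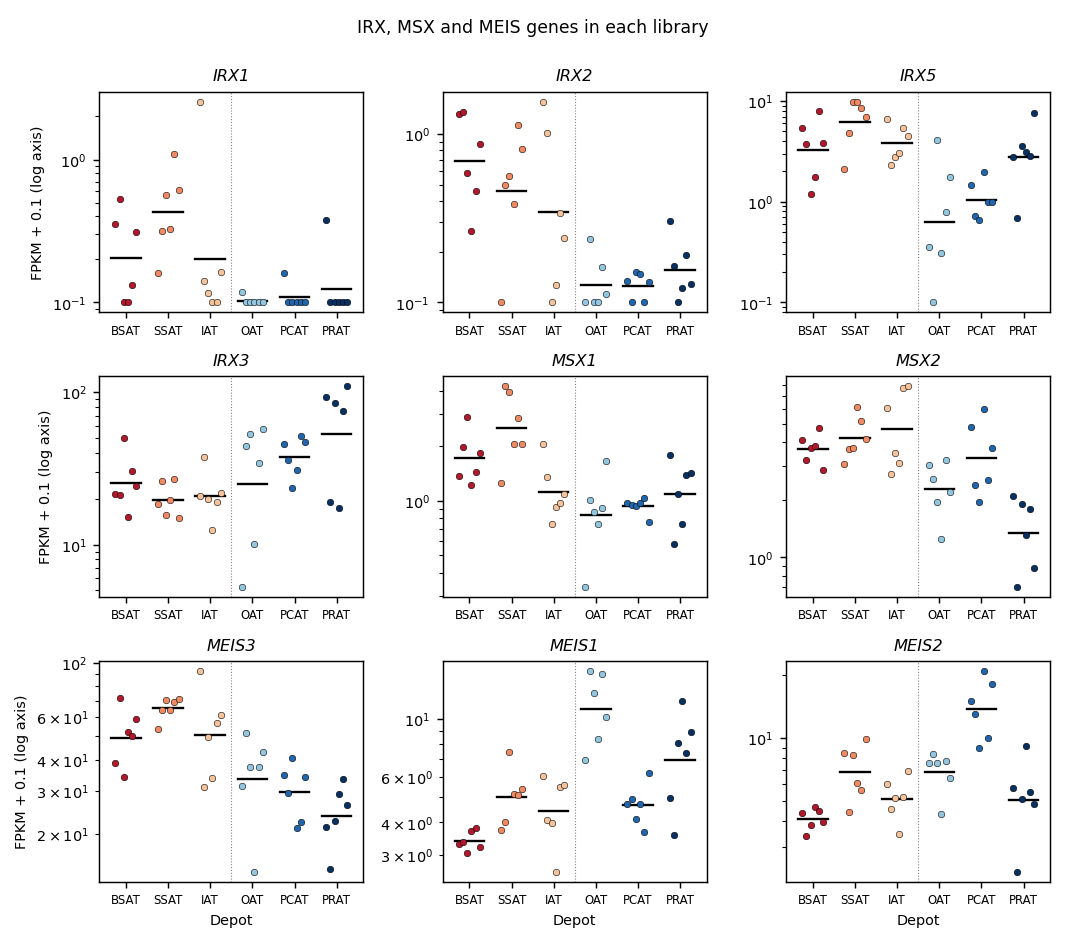
Level of 9 IRX, MSX and MEIS members in each of the 36 libraries (FPKM + 0.1, log axis), by depot, with SAT depots left and VAT depots right of the dotted line. Points are single animals, in order 1 to 6 within a depot, and bars are means of the log values. IRX5 and IRX3 lean opposite ways, MEIS1 peaks in OAT at 15.2 FPKM and MEIS2 in PCAT at 20.8 FPKM.

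Among FOX members, 5 of 21 passed (1 higher, 4 lower in SAT), beside 30.0% of all gene models. FOXK1 had 163, 293 and 346 FPKM in SAT, against 172, 204 and 282 FPKM in VAT (0.36 ± 0.08, adjusted p = 0.0018), higher in 6 of 6 animals. FOXK2, its paralogue, had 23.7, 34.2 and 50.4 FPKM in SAT, against 36.4, 45.0 and 67.8 FPKM in VAT (−0.43 ± 0.09, adjusted p = 0.00049), lower in 6 of 6 animals. FOXO1, which insulin keeps out of the nucleus, had 19.4, 27.5 and 48.1 FPKM in SAT, against 29.1, 39.4 and 61.2 FPKM in VAT (−0.47 ± 0.10, adjusted p = 0.00098). FOXK1 and FOXK2 thus differed in opposite directions, also under quantile normalization (0.48 and −0.29, adjusted p = 0.00015 and 0.0040). FOXP1 (−0.24 ± 0.09, adjusted p = 0.039) and FOXJ3 (−0.16 ± 0.06, adjusted p = 0.039) were also lower, but neither passed under quantile normalization (adjusted p = 0.222 and 0.475), without the 6 lymphoid-rich libraries (0.123 and 0.238), without the 4 adipocyte-poor ones (0.231 and 0.251), without BSAT 1 (0.0606 and 0.0513) or without animal 1, 2, 4 or 6. FOXC2, known in mouse for a leaner fat phenotype when overexpressed in fat, averaged under 1 FPKM and did not pass.

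Of 10 SOX members only SOX6 and SOX11 passed, both lower in SAT, beside 30.0% of all gene models. SOX6, a SOX factor without an activation domain of its own, had 12.2, 22.2 and 49.3 FPKM in SAT, against 7.63, 51.4 and 84.9 FPKM in VAT (−0.81 ± 0.25, adjusted p = 0.013, lower in 6 of 6 animals). The lowest VAT value, in OAT 1, came from a lymphoid-rich library, and without the 6 such libraries the difference was −1.20 (adjusted p = 1.4e-05). The SOX6 call was lost under quantile normalization (adjusted p = 0.0564) and without animal 3 (0.0509) or 6 (0.0752). SOX11, known from the developing nervous system, had 0.0235, 0.258 and 1.65 FPKM in SAT, against 0.0749, 0.812 and 4.48 FPKM in VAT (−1.12 ± 0.37, adjusted p = 0.022), lower in 5 of 6 animals, and the call was lost without animal 3, 5 or 6 (0.0866 to 0.104). No T-box, SIX-family, DLX, LHX, PAX or ZIC member passed in this comparison.

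To reveal members of single depots, the 6 depots were compared together and each with the mean of the other 5. By the F test over the depots, 21 of 63 members (33.3%) differed, beside 21.3% of all gene models. Of these, LHX2 and ZIC1 passed the limit on low values through 1 depot only, and SIX2 (adjusted p = 4.7e-05), MEIS1 (6.4e-05) and MEIS2 (7.3e-05) led the others. The depot mean was highest in PRAT for 21 members, in PCAT for 15, in BSAT for 10, in SSAT for 7 and in IAT and OAT for 5 each. This tally of plain FPKM means was not made for all gene models. In PRAT it includes PAX2, PAX8, LHX1 and FOXJ1, all highest in the kidney-rich PRAT 1. It also includes PAX5 and FOXM1, high in the lymphoid-rich PRAT 2 and PRAT 4. The median PRAT difference from the other 5 depots was 0.06 over the members and 0.11 over all gene models (log2). Across the 15 pairs of depots, 85 of 945 member tests passed (8.99%), beside 5.48% of all tests. At least 1 pair passed for 25 members, and none for 38. The share of all gene models with such a pair was not counted.

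**Figure D3:**
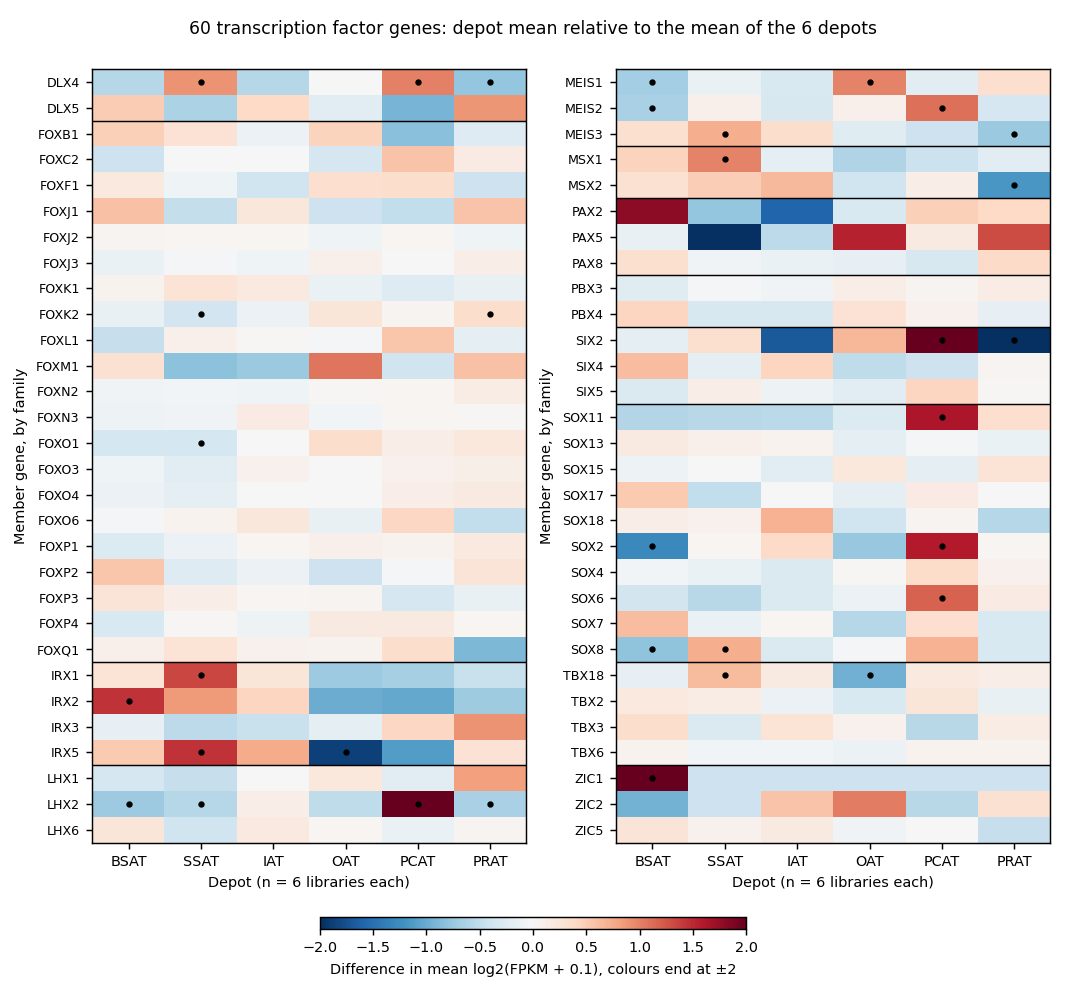
Mean log2(FPKM + 0.1) of 60 of the 63 members in each depot minus the mean over the 6 depots (red higher, blue lower, colours ending at ±2), grouped by family, with 6 libraries a depot. Dots mark members past adjusted p 0.05 for that depot against the other 5. PCAT carries 7 dots, all on red cells, and IAT carries none.

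PCAT held 8 members that were higher than in the other 5 depots and none that were lower, or 12.7% of members, beside 4.26% of all gene models (3.26% higher and 1.01% lower). Apart from LHX2, which was a member only through PCAT, 7 passed. SIX2 (evm.model.chr10.285), a factor that keeps kidney progenitors undifferentiated in the mouse, had 7.73, 9.85 and 11.8 FPKM in PCAT, against 0, 0.592 and 11.9 FPKM elsewhere (3.50 ± 0.54, adjusted p = 5.0e-05). The 6 PCAT libraries lay close together, and of the others only OAT libraries reached the same level. LHX2, a LIM homeodomain factor of brain, eye and limb, had 0.176, 0.894 and 1.33 FPKM in PCAT, against 0, 0 and 0.232 FPKM elsewhere, where it was listed at 0 in 17 of 30 libraries. Elsewhere it averaged 0.0281 FPKM, under the limit on low values, so its difference of 2.79 ± 0.22 is given as a description. Its calls of lower level in PRAT, SSAT and BSAT, each set against a mean that holds PCAT, restate the high level in PCAT. PCAT 1 (0.176 FPKM) alone lay within the range of the other depots. The pseudocount moved the LHX2 difference between 0.81 and 5.14.

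SOX6 had 52.9, 70.2 and 84.9 FPKM in PCAT, against 7.63, 24.2 and 57.5 FPKM elsewhere (1.42 ± 0.30, adjusted p = 0.0027). MEIS2 had 8.89, 14.0 and 20.8 FPKM in PCAT, against 2.19, 5.26 and 9.83 FPKM elsewhere (1.32 ± 0.19, adjusted p = 1.5e-05). For SOX6 and MEIS2 the PCAT range reached into that of the other depots only at its low end. SOX2, a factor of stem cells and of glia, had 0.451, 0.796 and 1.74 FPKM in PCAT, against 0, 0.115 and 1.41 FPKM elsewhere (1.90 ± 0.40, adjusted p = 0.0029; 0.62 to 3.05 over the alternatives, with the call kept). SOX11 had 0.931, 1.40 and 4.48 FPKM, against 0.0235, 0.291 and 3.41 FPKM (1.93 ± 0.46, adjusted p = 0.0092), and DLX4, a placental and craniofacial homeodomain factor in human, 0.656, 1.18 and 1.70 FPKM, against 0.166, 0.378 and 2.74 FPKM (1.21 ± 0.26, adjusted p = 0.0041). Without animal 6 the calls of DLX4 (adjusted p = 0.0521) and SOX11 (0.0624) were lost. Set against single depots, PCAT differed past the threshold from all 5 others for MEIS2 and from all but OAT for SIX2. For SOX6 and SOX11 it differed from the SAT depots only. For SOX2 it differed from BSAT and OAT only, and for DLX4 not from SSAT or OAT. Without the 6 lymphoid-rich libraries 13 members passed (10 higher, 3 lower), and without animal 6 only 5. Without the 4 adipocyte-poor libraries, PCAT 4 among them, 10 passed (9 higher, 1 lower), and the differences were 3.23 for SIX2, 1.22 for SOX6 and 1.21 for MEIS2.

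Markers of other cells moved with PCAT. Schwann cell markers, 7 genes of a list of 8, summed to 83.7 to 195 FPKM in PCAT and 14.5 to 89.2 FPKM elsewhere, and their score was 1.41 to 2.27 in PCAT and at most 0.879 elsewhere. Mesothelial markers, 10 genes of a list of 11, summed to 4.92 to 2453 FPKM in PCAT and 1.11 to 553 FPKM elsewhere, with the highest scores in PCAT 4 (6.33) and PCAT 2 (5.89). Their part in the PCAT differences was not tested.

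OAT was marked by MEIS1 and TBX18 in opposite directions, among 3 of 63 members that passed (1 higher, 2 lower; 4.76%, beside 0.78% of all gene models, 0.334% higher and 0.447% lower). MEIS1 had 6.83, 11.3 and 15.2 FPKM in OAT, against 2.48, 4.61 and 11.6 FPKM elsewhere (1.20 ± 0.18, adjusted p = 0.00015). TBX18, a T-box factor of the epicardium and of pericyte lineages in the mouse, had 0.948, 1.96 and 3.81 FPKM in OAT, against 2.36, 4.68 and 8.54 FPKM elsewhere (−1.16 ± 0.19, adjusted p = 0.00045). Both held in 6 of 6 animals and under all 18 alternatives, and without the 6 lymphoid-rich libraries the differences were 1.42 and −1.17. Between pairs of depots, OAT did not differ past the threshold from PRAT for MEIS1, nor from BSAT or PRAT for TBX18. IRX5 was also lower in OAT, with 0, 0.475 and 3.96 FPKM, against 0.554, 2.98 and 9.75 FPKM elsewhere (−2.23 ± 0.48, adjusted p = 0.016). OAT 1 and OAT 4 were lymphoid-rich, and without the 6 lymphoid-rich libraries the IRX5 difference was −1.90 and did not pass (adjusted p = 0.152), nor did it without animal 1, 4 or 5 (0.0713 to 0.137) or with a pseudocount of 1 (0.0503), and without the 4 adipocyte-poor libraries it was −1.73 (0.290). MEIS1 was lowest in BSAT, whose 6 libraries all lay between 2.95 and 3.69 FPKM, and the OAT and BSAT ranges did not overlap (BSAT minus OAT, −1.69 ± 0.23, adjusted p = 2.9e-05; 5 members passed for this pair, beside 5.0% of all gene models).

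In PRAT 6 members passed (1 higher, 5 lower; 9.52%, beside 10.9% of all gene models, 7.6% higher and 3.29% lower). MSX2 had 0.597, 1.45 and 1.99 FPKM in PRAT, against 1.15, 3.51 and 7.78 FPKM elsewhere (−1.40 ± 0.24, adjusted p = 0.00049). SIX2 had 0, 0.243 and 0.742 FPKM in PRAT, against 0.0914, 1.27 and 11.9 FPKM elsewhere (−2.45 ± 0.54, adjusted p = 0.0041), the opposite end from PCAT, and the PCAT and PRAT ranges did not overlap (PCAT minus PRAT, 4.96 ± 0.70, adjusted p = 2.9e-05; 5 members passed for this pair, beside 3.08% of all gene models). MEIS3 had 14.2, 24.2 and 33.4 FPKM in PRAT, against 13.9, 46.4 and 92.5 FPKM elsewhere (−0.89 ± 0.20, adjusted p = 0.0048). MSX2 and MEIS3 were lower in PRAT in 6 of 6 animals and SIX2 in 5 of 6. DLX4 was lower too (−0.93 ± 0.26, adjusted p = 0.022), LHX2 was counted as lower, and FOXK2 was higher (0.41 ± 0.11, adjusted p = 0.015). DLX4 was lost without the 6 lymphoid-rich libraries (adjusted p = 0.0664), with a pseudocount of 1 (0.0555) and without animal 2, 3, 4, 5 or 6 (0.0533 to 0.0874). FOXK2 was lost under quantile normalization (0.0566) and without animal 2 (0.122) or 3 (0.0600). MSX2, SIX2 and MEIS3 kept their calls in all alternatives run, and without animal 3 only those 3 members passed. In the pairs of depots, PRAT differed for MEIS3 and FOXK2 from the SAT depots only. For SIX2 and DLX4 it differed from SSAT and PCAT only, and for MSX2 from all but OAT. Without the 4 adipocyte-poor libraries 11 members passed (3 higher, 8 lower). Fibroblast and progenitor markers summed to 473 to 1256 FPKM in PRAT and 714 to 4846 FPKM elsewhere, and their part was not tested.

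In SSAT 10 members passed (7 higher, 3 lower; 15.9%, beside 9.13% of all gene models, 3.9% higher and 5.23% lower). MSX1 had 1.15, 2.35 and 4.15 FPKM in SSAT, against 0.235, 0.918 and 2.78 FPKM elsewhere (1.19 ± 0.25, adjusted p = 0.0026). TBX18 had 4.72, 5.80 and 8.54 FPKM in SSAT, against 0.948, 3.76 and 6.34 FPKM elsewhere (0.75 ± 0.19, adjusted p = 0.011), so it was highest in SSAT and lowest in OAT. IRX5 (1.73 ± 0.48, adjusted p = 0.022), IRX1 (1.59 ± 0.43, 0.020), DLX4 (1.08 ± 0.26, 0.0095), SOX8 (0.87 ± 0.26, 0.031) and MEIS3 (0.86 ± 0.20, 0.0066) were higher in SSAT, and FOXK2 (−0.47 ± 0.11, 0.0074) and FOXO1 (−0.43 ± 0.13, 0.038) lower, with LHX2 the other call. Without animal 3 only MSX1 still passed, and without animal 6 only 3 members did (MSX1, MEIS3 and DLX4). Of these 10, MSX1 alone kept its call in all alternatives run. Among them SOX8 alone differed past the threshold between SSAT and another SAT depot, BSAT. For MSX1, MEIS3, IRX1, IRX5, FOXK2 and FOXO1 SSAT differed from VAT depots only. For TBX18 it differed from OAT only and for DLX4 from PRAT only. IRX1 was lost with a pseudocount of 1 (adjusted p = 0.134) and IRX5 with one of 0.01 (0.0544). FOXO1 was lost under quantile normalization (0.107), without the 6 lymphoid-rich libraries (0.0552) and on the TPM scale (0.0538). Fibroblast and progenitor markers were high in SSAT, at 1584 to 4846 FPKM, against 473 to 3565 FPKM elsewhere, and their part was not tested.

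In BSAT 7 members passed (2 higher, 5 lower; 11.1%, beside 2.01% of all gene models, 0.526% higher and 1.49% lower). ZIC1 (evm.model.chr1.806), a zinc finger factor of the dorsal neural tube and somites and a known marker of brown fat in the mouse, was above 0 in BSAT libraries only. It had 0.153, 0.249, 0.721, 2.30, 1.55 and 0 FPKM in BSAT 1 to 6 and was listed at 0 in all 30 other libraries. It was thus a member only through BSAT, its values are given as a description, and 6 members passed apart from it. Its neighbour ZIC4, below the limit and so no member, had 0.140, 0.293, 0.577, 0.690, 0.331 and 0.126 FPKM in BSAT 1 to 6, and elsewhere a value above 0 only in SSAT 1 (0.0236 FPKM). ZIC4 was named after its values were seen. BSAT 6 thus had ZIC4 while its ZIC1 was listed at 0, and the muscle-rich BSAT 1 had low values of both. IRX2 was also higher in BSAT (0.164, 0.631 and 1.25 FPKM, against 0, 0.0491 and 1.46 FPKM elsewhere; 1.73 ± 0.42, adjusted p = 0.022). In the pairs of depots, BSAT differed for IRX2 from the VAT depots only, as SSAT did, and IRX2 was a member only through SAT.

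Lower in BSAT were MEIS1 (−0.82 ± 0.18, adjusted p = 0.013), MEIS2 (−0.77 ± 0.19, 0.024), SOX8 (−0.96 ± 0.26, 0.040) and SOX2 (−1.55 ± 0.40, 0.033). Each was set against a mean that holds PCAT, where MEIS2 and SOX2 were highest. Between pairs of depots, BSAT differed past the threshold for MEIS2 and SOX2 from PCAT only. LHX2, also counted, was listed at 0 in all 6 BSAT libraries. SOX8 had 1.42, 2.07 and 2.79 FPKM in BSAT and SOX2 0, 0 and 0.127 FPKM. Schwann cell markers summed to 14.5 to 23.8 FPKM in BSAT and 17.1 to 195 FPKM elsewhere, and their part was not tested. Without the muscle-rich library BSAT 1 only 2 members passed, ZIC1 and MEIS1, while IRX2 (adjusted p = 0.0849), MEIS2 (0.0519), SOX2 (0.0893) and SOX8 (0.120) did not. Under quantile normalization MEIS1 (0.0513), MEIS2 (0.0760) and SOX8 (0.0563) were lost, and with a pseudocount of 1 SOX2 (0.0846). Without single animals 1 to 4 members passed, and without animal 6 ZIC1 alone did.

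In IAT 0 of 63 members passed, beside 0.181% of all gene models (0.136% higher, 0.0452% lower), and 9 had an unadjusted p under 0.05 (limma). SIX2 had 0.110, 0.325 and 0.456 FPKM in IAT, against 0, 1.27 and 11.9 FPKM elsewhere (−2.02 ± 0.54, adjusted p = 0.19). MSX2 had its highest depot mean there (0.78 ± 0.24, adjusted p = 0.31). Without the 6 lymphoid-rich libraries, and likewise without the 4 adipocyte-poor ones, 1 member, SIX2, passed.

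Neighbours in the order of depot means differed past the threshold for 3 members only. For MEIS2 this was PCAT over SSAT (adjusted p = 0.0081). The others were LHX2 (PCAT over IAT) and ZIC1 (BSAT over SSAT), whose direction was fixed by the depot that made them members. The pairs of LHX2, MEIS2 and ZIC1 passed for 2.85%, 7.94% and 0.192% of all gene models. For the other 60 members no neighbours in the order differed past the threshold, and such neighbours were not counted over all gene models. SIX2 had its highest mean in PCAT, then OAT, SSAT, BSAT, IAT and PRAT, and IAT minus PCAT was −4.60 ± 0.70 (adjusted p = 5.7e-05). Of 63 members 0 passed between OAT and PRAT (0.119% of all gene models did) and 0 between SSAT and IAT (0.102%), with 8 and 7 members at an unadjusted p under 0.05 (limma).

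SIX4 and SIX5 did not pass between depots or between the fat classes, and SIX2 passed between depots only. Of 4 tested EYA and DACH genes, whose proteins form complexes with SIX-family proteins, only EYA3 passed between SAT and VAT (−0.24 ± 0.08, adjusted p = 0.028), and none differed between any depots. Of all gene models 30.0% and 21.3% passed these tests, so counts out of 4 genes say little.

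The 38 members without a called pair of depots came from most of the families. The SOX17, SOX7 and SOX18 genes, whose proteins act in endothelial cells, had lowest, median and highest levels over all libraries of 5.03, 29.2 and 99.6 FPKM (SOX17), 0.561, 3.46 and 12.9 FPKM (SOX7) and 0.0682, 0.342 and 5.74 FPKM (SOX18). SOX17 and SOX7 were highest in BSAT 3 (endothelial marker score 0.696) and lowest in OAT 1, the library with the lowest such score (−2.27). The highest score was in PCAT 4 (0.854). SOX18 did not share this order, with its highest value in IAT 4 (score −0.096) and its lowest in PRAT 2 (−0.942). The SAT minus VAT interval of SOX17 ran between −0.58 and 0.63 on the log2 scale, so changes within it are not shown to be absent. TBX2 and TBX3, T-box repressors of limb and heart development, had 6.56, 36.0 and 73.1 FPKM and 2.06, 6.99 and 20.9 FPKM over all libraries, and differed by 0.14 ± 0.23 and 0.21 ± 0.27 between SAT and VAT (adjusted p = 0.66 and 0.56). TBX6 stayed between 0.0335 and 0.335 FPKM.

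The forkhead genes without a called pair included the steadiest members. FOXN3 lay between 12.2 and 20.7 FPKM in all 36 libraries (SAT minus VAT, 95% interval −0.13 to 0.13), FOXJ2 between 9.64 and 14.8 FPKM and FOXN2 between 4.23 and 7.34 FPKM. FOXO3 lay between 62.8 and 134 FPKM and FOXO4 between 22.6 and 50.8 FPKM, while their paralogue FOXO1 was among the members that passed. FOXC2, FOXL1 and FOXF1, which lie close together in RefSeq, had medians of 0.118, 0.210 and 0.926 FPKM, and none of them passed between any depots (adjusted p = 0.25, 0.77 and 0.059). DLX5, a homeodomain factor of bone and limb, had 0.265, 2.76 and 8.93 FPKM over all libraries and did not follow DLX4 (any depots, adjusted p = 0.13). LHX6, known from interneurons and teeth, had 1.64, 5.58 and 9.64 FPKM and differed by 0.02 ± 0.21 between SAT and VAT. ZIC2 and ZIC5, a second pair of adjacent ZIC genes, had medians of 0.476 and 0.464 FPKM and, unlike ZIC1, values above 0 in every depot.

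Several members had their highest levels in libraries rich in markers of other cells. PAX5, the B cell identity factor, had 398, 343, 193, 105, 91.2 and 36.5 FPKM in OAT 1, PRAT 2, PRAT 4, IAT 4, OAT 4 and PCAT 2, the 6 libraries chosen by the other B cell markers, and at most 16.2 FPKM elsewhere. It did not pass between any depots. FOXM1, a factor of dividing cells, was highest in OAT 1 (59.2 FPKM), PRAT 2 (53.2 FPKM) and PRAT 4 (24.8 FPKM), and had a median of 0.873 FPKM in the 30 other libraries. PAX2, PAX8 and LHX1, factors of kidney development, had their highest values in PRAT 1 (44.9, 7.72 and 3.51 FPKM), as did FOXJ1 (2.70 FPKM), a factor of ciliated cells. PRAT 1 was also the library with the highest kidney markers (9 of 9 genes, summed level 2027 FPKM, against at most 698 FPKM elsewhere). PAX2 was not low everywhere else, with 0.568, 4.79 and 15.9 FPKM in BSAT. FOXP3, known from regulatory T cells, did not follow this pattern, with a median of 11.8 FPKM in the 6 lymphoid-rich libraries and 12.5 FPKM in the other 30.

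**Figure D4:**
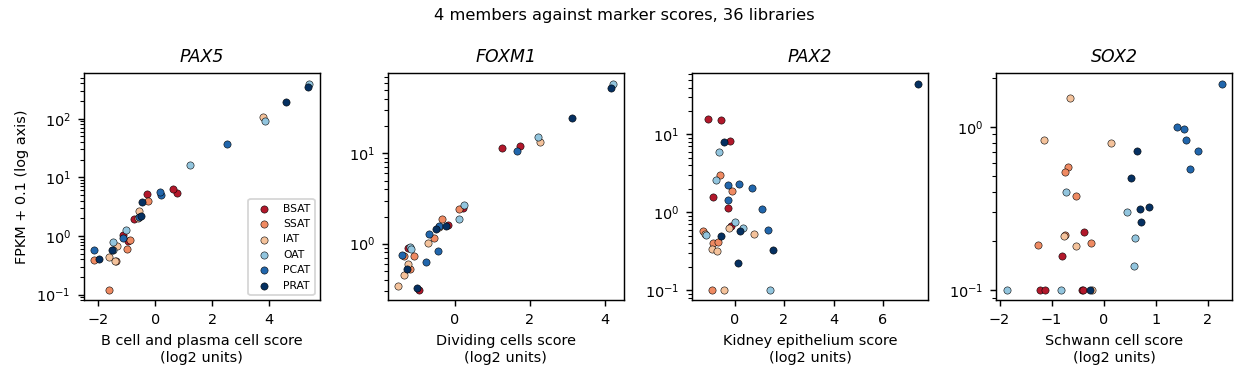
Level of PAX5, FOXM1, PAX2 and SOX2 (FPKM + 0.1, log axis) against the score of a marker list (B cell, dividing cell, kidney epithelium and Schwann cell; log2 units relative to the mean of 36 libraries), with 1 point a library coloured by depot. PAX5 climbs with the B cell score up to 398 FPKM in OAT 1, and PAX2 peaks in PRAT 1 at 44.9 FPKM, where the kidney score is 7.40.

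Males were compared with females on the mean of each animal over its 6 depots (3 males and 3 females). No member passed (0 of 63, beside 0.0% of all gene models), and 1 member had an unadjusted p under 0.05, PAX2 (male minus female, −0.99 ± 0.24, adjusted p = 1; limma). The difference of SAT and VAT did not differ by sex past the threshold for any member (0 of 63, beside 0.0% of all gene models, 2 at an unadjusted p under 0.05). With 3 animals a side, a missed threshold does not show that the sexes are alike.

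Factors of these depots outside the 13 families were counted as well. Of 38 tested positional and mesenchymal factors outside the families, 22 passed between SAT and VAT (14 higher, 8 lower) and 23 between any depots, beside 30.0% and 21.3% of all gene models. The list was chosen with earlier results of these data known, so its counts are a description. Its genes were not screened for passing the limit on low values through 1 class only. The list had a median SAT minus VAT difference of 0.09, beside −0.13 over all gene models. EMX2 (3.58 ± 0.64, adjusted p = 0.00012), EN1 (2.77 ± 0.51, 0.00016) and SHOX2 (2.32 ± 0.23, 2.0e-08), homeodomain factors of limb and trunk, were higher in SAT, and TCF21 (−4.35 ± 0.47, 7.3e-08), BNC1 (−3.10 ± 0.77, 0.0029) and WT1 (−2.65 ± 0.30, 1.7e-07), factors of visceral mesoderm and mesothelium, were lower. Of 5 other TALE factors, TGIF2 (−0.73 ± 0.14, adjusted p = 0.00034) and PKNOX1 (−0.34 ± 0.08, adjusted p = 0.0018), a further partner of PBX proteins, were lower in SAT. The TALE members above went both ways, with MEIS1, MEIS2, PBX3 and IRX3 lower and MEIS3 and IRX5 higher. IRX1 and IRX2, higher too, had their direction fixed by the limit on low values.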

How the data were processed

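RNA was sequenced in 36 libraries, 1 from each of 6 depots of 6 river buffaloes. The authors deposited FPKM values. Per the labels and the paper's methods, reads were filtered with Fastp, aligned with HISAT2 2.2.1 to the authors' own river buffalo genome and quantified with StringTie 2.1.4. FPKM corrects for gene length and mapped fragments, not for a few dominant genes. The labels name a TruSeq RNA kit and the methods rRNA depletion. Of 23032 gene models 6773 had no symbol.

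Members follow the symbol rule, with the highest model per symbol, and all 63 matched RefSeq (NDDB_SH_1) by symbol, used for names and neighbours only. The members and lists were chosen with earlier results of these data known. Values of 3 members are not reported here, and counts include them. The 17688 gene models averaging over 0.1 FPKM were tested as log2(FPKM + 0.1) with limma 3.58.1 in R 4.3.3 (empirical Bayes with trend), Benjamini-Hochberg adjusted over all of them, threshold 0.05. These fits held no animal term, and the test between fat classes no depot term. Same-numbered libraries come from 1 animal by the labels. Their deviations from depot means correlated by 0.217 on average (−0.571 to 0.740), and those of different animals by −0.039. The highest correlation between 2 libraries was 0.988, so none was a copy. Tests were checked on simulated data with independent normal noise in each library. That check held no animal effect and no values piled up at 0, so it does not cover these features.

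Members past the threshold with a mean of at least 0.5 FPKM were named, up to 12 a direction between fat classes and 6 a direction for a depot, with all members averaging at least 20 FPKM, known cell type markers and up to 6 genes of each list. Members under 0.5 FPKM, such as IRX1, IRX2, LHX2, SOX2 and ZIC1, were named after their values were seen. Alternatives covered pseudocounts, filters, TPM scaling, quantile normalization, summed models, an animal block, leaving out lymphoid-rich or muscle-rich libraries and each animal. Leaving out the kidney-rich library or the 4 adipocyte-poor libraries was added after seeing the data. Tables were handled with Python, figures drawn with matplotlib.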

Additional observations from a re-analysis of the deposited data

Results flagged for a closer look

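For 20 members the 6 libraries of each depot were examined for a single value far from the rest (120 groups of 6, Dixon's test at its 95% critical value). This found 6 groups, as many as chance gives at about 1 in 20. DLX4 in OAT 1 was 2.74 FPKM and the nearest OAT library 0.643 FPKM, and OAT 1 was lymphoid-rich. FOXP1 in PRAT 4, a lymphoid-rich library too, was 448.3 FPKM and the nearest PRAT library 304.5 FPKM. TBX18 in PRAT 2, also lymphoid-rich, was low at 2.575 FPKM, with the nearest at 4.089 FPKM. SOX11 in IAT 2 was high at 0.997 FPKM, with the nearest at 0.3125 FPKM. MEIS3 in SSAT 1 was low at 53.6 FPKM, with the nearest at 63.91 FPKM, and MSX1 in PCAT 6 was low at 0.6626 FPKM, with the nearest at 0.8296 FPKM.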

How the results depend on the processing

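No difference of the 52 past the threshold changed its direction in any of 936 values under alternatives. Of these, 793 kept their side of the threshold and 143 no longer passed, and 22 results kept it in every alternative run. Counts of members past the threshold moved by over 1.5 times as follows. For BSAT (7 members) the count was 3 with a mean FPKM of at least 1, 4 with quantile normalization, 11 without the 6 lymphoid-rich libraries, 2 without the muscle-rich library and 1 to 4 without single animals. For SSAT (10 members) it was 1 to 9 without single animals, lowest without animal 3. For PCAT (8 members) it was 4 with a mean FPKM of at least 1, 13 without the 6 lymphoid-rich libraries and 5 to 9 without single animals, lowest without animal 6. For PRAT (6 members) it was 11 without the 4 adipocyte-poor libraries and 3 to 9 without single animals, lowest without animal 3. For IAT (0 members) it was 1 without the 6 lymphoid-rich and 1 without the 4 adipocyte-poor libraries. Over the pairs of depots (85 calls) it was 56 with a mean FPKM of at least 1 and 49 to 76 without single animals. Between SAT and VAT (18 members) it was 13 to 15 without single animals, and lower calls (11) numbered 7 without animal 1 or 2 and 6 without animal 5 or 6. With the animal as a replicate block, 22 members differed between any depots, 19 between SAT and VAT (7 higher, 12 lower), 8 in BSAT, 11 in SSAT, 0 in IAT, 4 in OAT, 10 in PCAT, 8 in PRAT and 102 calls over the pairs, and no call was lost. Low genes are limited by the FPKM floor, since many libraries list them at 0.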
